A study of Mus musculus with 8 samples.

Results

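Integrins and the other cell surface receptors for extracellular matrix (ECM) were examined by RNA-seq of whole cochleae from mice lacking miR-29a (KO) and from wild-type mice (WT). The genes were matched by symbol, under a rule set with earlier results of these data known. Of the 21895 genes in the table, 36 matched: 17 integrin α chains, 8 integrin β chains and 11 other receptors (Cd36, Cd44, Cd47, Dag1, Bcam, Ddr1, Ddr2 and the syndecans Sdc1 to Sdc4). The rule names the α chain letters in capitals. Read without regard to case it would add the leukocyte chain Itgad, at 0.0107 to 1.72 FPKM, and Itgad was not counted here. The comparison is of 4 WT libraries (WT1 to WT4) with 4 KO libraries (KO1 to KO4), the KO libraries from mice homozygous for a miR-29a deletion (miR-29a-/-). No other allele, agent or treatment is named for either group, and the strain was kept on a C57BL/6 background with pups bred from heterozygotes. The deletion is not limited to a cell type, and each library mixes all cell types of the dissected cochlea. The age is given as 21 days in the series description and as 2 months in the methods of the study. The labels do not say whether a library is 1 mouse, whether littermates were matched or which sex each library came from. The study used mice of both sexes throughout its experiments. A p-value here therefore measures the spread between these libraries. Levels of the deleted microRNA in these libraries were not analysed here.

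Integrins are paired receptors in which an α and a β chain cross the membrane together. The α chain largely sets which ligand is bound (collagens, laminins, or proteins with an Arg-Gly-Asp motif such as fibronectin and vitronectin), and the β tail binds talin and kindlin inside the cell. Discoidin domain receptors are tyrosine kinases switched on by collagen, dystroglycan and Bcam bind laminin, and syndecans carry heparan sulphate chains that hold matrix proteins and growth factors. In the cochlea such receptors anchor the sensory epithelium, the strial capillaries, Schwann cells and fibrocytes to their basement membranes. Members of the family are also abundant on blood and bone cells, where β2 integrins carry leukocyte adhesion and the αIIb and β3 chains form the platelet fibrinogen receptor.

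miR-29a-3p recognises its targets mainly through bases 2 to 8, the seed, shown in capitals. Its mature sequence is given because loss of this RNA is the only difference between the groups that the labels name, and miR-29b-3p and miR-29c-3p are shown because they carry the same seed. In RefSeq (GRCm38.p6), miR-29a-3p lies at chr6:31062673-31062694 on the minus strand, miR-29b-3p at chr6:31063025-31063047 on the minus strand and at chr1:195037091-195037113 on the plus strand, and miR-29c-3p at chr1:195037600-195037621 on the plus strand.
mmu-miR-29a-3p: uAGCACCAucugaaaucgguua
mmu-miR-29b-3p: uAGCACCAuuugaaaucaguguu
mmu-miR-29c-3p: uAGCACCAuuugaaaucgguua
The DNA letters that pair with the seed are TGGTGCT. On the transcribed strand, they occur in the longest annotated 3′-UTR (GENCODE mouse release 21, GRCm38) of 9 of the 36 receptor genes: Cd44, Cd47, Dag1, Ddr2, Itga4, Itga5, Itga9, Itgb1 and Itgb3. Itga9 holds 2 copies and the others hold 1. All 9 genes passed the filter on low values (a mean of at least 0.5 FPKM), so that 25.7% of the 35 receptor genes tested hold the letters, against 15.5% of the 14832 tested genes with an annotated 3′-UTR. The receptor genes also have the longer 3′-UTRs, with a median of 1660 bases against 1181 over the tested genes. Of the 10 copies, 0 are followed by an A, the base that would lengthen the match to 8 bases. The surroundings of 5 copies are shown for the genes whose levels are followed most closely here, with the 7 matching letters in capitals. In Itga9, the gene whose groups did not overlap, they lie at positions 1000 to 1006 and 3304 to 3310 of a 3′-UTR of 3671 bases (plus strand, chr9:118898332-118898338 and chr9:118900636-118900642). In Itgb1 they lie at 787 to 793 of 1112 bases (plus strand, chr8:128732875-128732881), in Cd47 at 2659 to 2665 of 4133 bases (plus strand, chr16:49913536-49913542), and in Cd44 at 1248 to 1254 of 2992 bases (minus strand, chr2:102812879-102812885).
Itga9, copy at 1000: gtccccaactggTGGTGCTgcag
Itga9, copy at 3304: ccgggtgtggcgTGGTGCTctct
Itgb1: ttctttaattccTGGTGCTcctt
Cd47: tctcacccttccTGGTGCTtcgt
Cd44: ggctgtgtttgtTGGTGCTttca
A match of letters is a description and not a shown binding site, and the longest annotated 3′-UTR need not be the one used in the cochlea.

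The values are FPKM, the fragments mapped to a gene scaled by its length and by the fragments mapped in the library, so levels can be set side by side between genes. The total FPKM was 249221 to 288695 per library, and the relative depth estimated from the lowest values was 0.946 to 1.18 of the median. The defining genes of hair cells, cochlear fibrocytes, stria vascularis and tectorial membrane were all above 0 in every library. The fibrocyte genes summed to 1310 to 2041 FPKM in WT and 1483 to 1939 in KO, and the stria genes to 94.96 to 285 in WT and 133 to 193 in KO. At the unadjusted limma threshold given below, 1 of 5 tectorial genes (Tectb) was lower in KO, against 0.507% of all tested genes. Without WT1, 3 of 4 stria, 2 of 4 fibrocyte, 1 of 5 tectorial and 0 of 6 hair cell genes were lower, against 7.4%. The WT libraries resembled each other less than the KO libraries did, with Pearson's r of 0.725 to 0.962 for pairs of WT libraries and 0.924 to 0.957 for pairs of KO libraries. These are correlations over genes, and genes are not independent replicates. WT1 and WT3 stood apart in opposite directions. The neutrophil genes summed to 9443 FPKM in WT1 and to 51.7 in WT3, against 659.8 and 905.7 in WT2 and WT4 and 1669 to 5072 in KO. Schwann cell and neuron genes ran the other way within WT, with 515 in WT1, 1688 in WT3 and 974 to 1263 in KO. The mean r to the other libraries was 0.847 for WT1 and 0.852 for WT3, against 0.91 to 0.926 for the rest. Results are given with all 8 libraries and, where it matters, without WT1, a choice made after these values had been seen.

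Of the 36 matrix receptor genes, 10 had a mean above 30 FPKM, 19 lay between 5 and 30, and 7 were below 5. Sdc4 was the most abundant by its mean over the 8 libraries (83.6 FPKM), followed by Itgb1 (61.0), Cd47 (60.5), Dag1 (44.0), Bcam (42.8) and Sdc3 (41.0). The neighbours Itgb1 and Cd47 differed by less than their spread in either group. The least abundant was Itgae, the αE chain of intraepithelial lymphocytes, at 0.0721 to 0.396 FPKM, and it was the 1 gene below the mean of 0.5 FPKM required for testing. The SD on the log2 scale was larger in WT than in KO for 30 of the 35 genes tested (85.7%, against 77.7% of all tested genes).

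**Figure D1:**
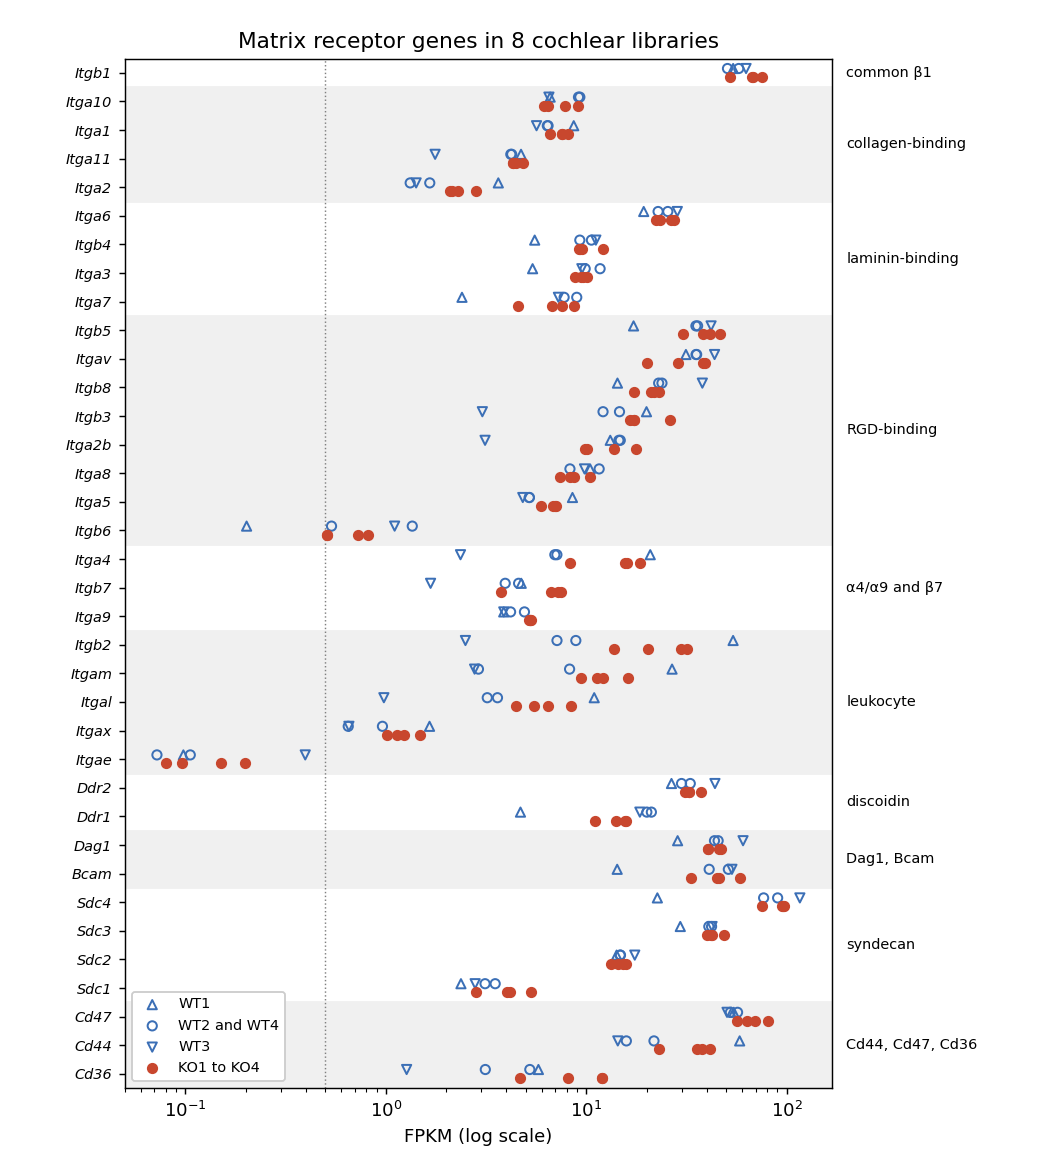
FPKM (log scale) of the 36 matrix receptor genes, grouped by role as named at the right, with WT libraries as open blue symbols (WT1 upward and WT3 downward triangles), the 4 KO libraries as filled red circles and a dotted line at 0.5 FPKM, the minimum mean for testing. WT1 and WT3 lie at opposite ends for Itgb2, Itgam, Itgal, Itga4 and Sdc4, with the KO circles between them.

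Few matrix receptors differed between KO and WT. Each gene was tested with limma on log2(FPKM + 0.1), and a gene was called at an unadjusted two-sided p-value under 0.05 with any fold change, the criterion of the study. Of the 35 receptor genes tested, 1 was called higher in KO (Cd36) and 0 were called lower. This is 2.86% of them, and over all 14990 tested genes 5.12% were called, 4.61% higher and 0.507% lower. The 767 calls over all genes were 691 higher and 76 lower, and this split was 409 and 358 (2.73% and 2.39%) after median-ratio scaling and 378 and 547 (2.52% and 3.65%, 6.17% in all) after quantile normalization. Cd36 was the 1 receptor called higher under either scaling. With Benjamini-Hochberg adjustment over all tested genes limma called 0 genes (0%), and the adjusted p-values of the receptor genes were 0.946 to 0.999. The median log2 difference (KO minus WT) of the 35 genes was 0.32, against 0.10 over all tested genes. Of the 35 estimates 29 were above 0, as were 66.5% of all tested genes. After each library had been rescaled by its median ratio, the all-gene median was 0.01, that of the receptors was 0.22, and 25 estimates were above 0 (50.8% of all tested genes). After quantile normalization, these values were -0.04, 0.09 and 24 (44.2% of all tested genes). Without WT1 they were -0.02, 0.20 and 20 (46.7%).

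The calls depended on WT1. Of the 8 libraries, WT1 had the lowest value for 15 of the 35 genes (among them Sdc4, Bcam, Ddr1, Itgb4 and Itga7) and the highest value for 9 (among them Itgb2, Itgam, Itgal, Itga4 and Cd44), whereas it was lowest for 52.1% and highest for 12.5% of all tested genes. WT3 was lowest for 13 receptor genes and highest for 7. When WT1 was left out, 12 of the 35 receptor genes were called higher in KO and 1 was called lower, that is 34.3% and 2.86%. In the same fit 12.1% of all tested genes were called higher and 7.4% lower (19.5% in all), and 0 receptor genes passed the adjusted threshold (smallest adjusted p = 0.145). Those called higher were Cd36, Cd44, Cd47, Itga2, Itga4, Itga5, Itgal, Itgam, Itgax, Itgb2, Itgb3 and Itgb7, and Ddr1 was lower. Of these 12, 8 had their highest value of all in WT1. Without WT1, the KO values of 12 receptor genes lay wholly above WT (11.1% of all tested genes) and those of Ddr1 wholly below (7.17%, 18.3% in all). The genes wholly above were not the same set as those called. Cd36, Cd47 and Itgb7 were called but overlapped, and Itga1, Itga9 and Itga11 did not overlap but were not called. With WT3 alone left out, 1 receptor gene was called higher (Cd36) and 0 lower, and 596 of all 15017 tested genes were called. With both WT1 and WT3 left out, a choice made after seeing the data, 9 were called higher (9.17% of all tested genes) and 1 lower (6.97%, 16.1% in all).

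**Figure D2:**
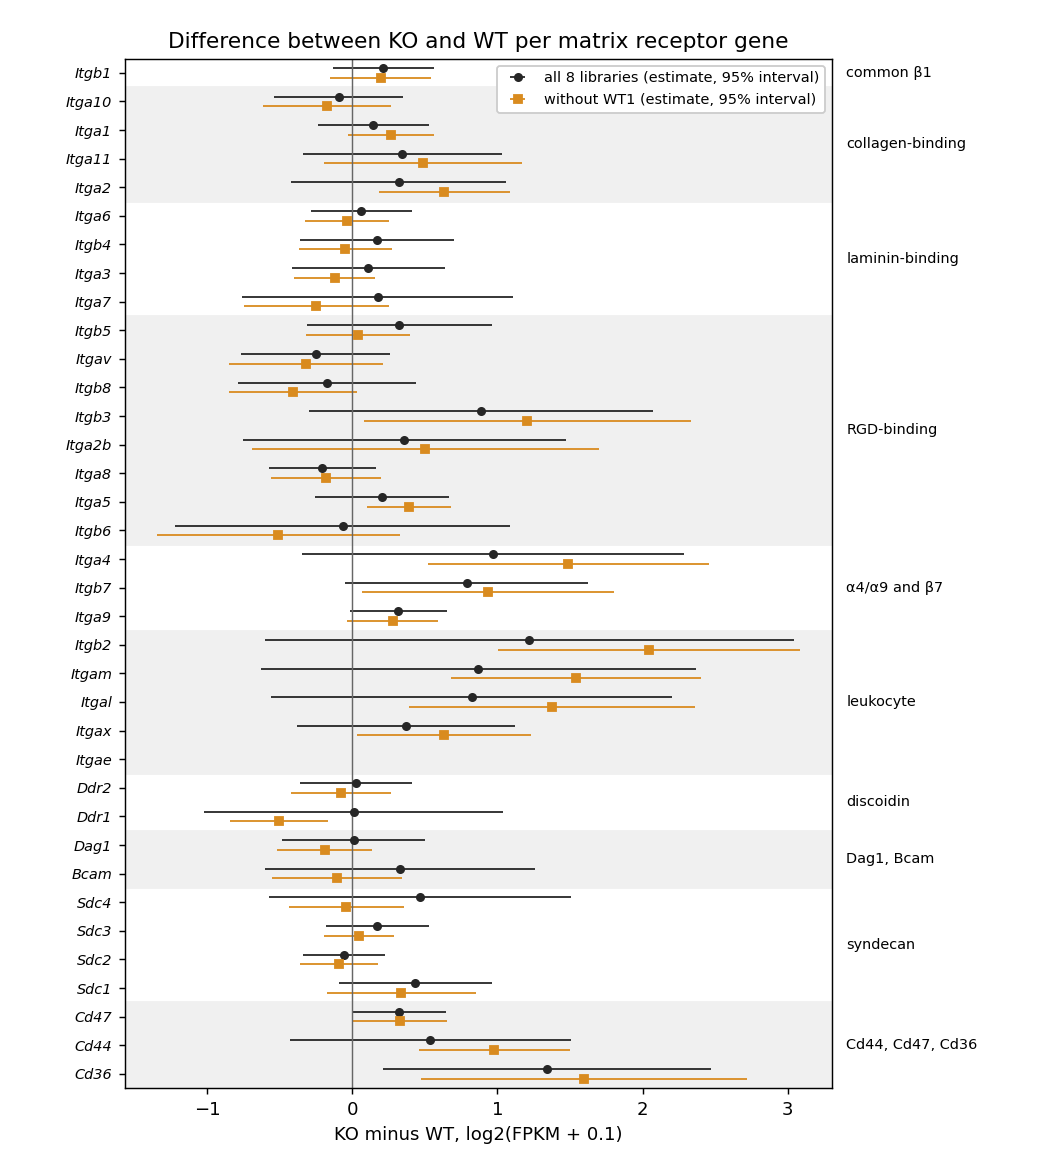
Difference KO minus WT in log2(FPKM + 0.1) for each of the 35 tested matrix receptor genes, with 95% intervals from limma, for all 8 libraries (black circles) and without WT1 (orange squares). With all 8 libraries the interval of Cd36 alone leaves out 0, and without WT1 the estimates of the leukocyte chains, Itga4 and Cd44 lie further right and that of Ddr1 further left.

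The β1 chain, Itgb1 (ENSMUSG00000025809, chromosome 8, 128685654 to 128733200 on GRCm38), is the shared partner of most matrix-binding α chains. Its FPKM was 54.1, 50.7, 62.7 and 57.7 in WT1 to WT4 and 67.3, 75.7, 67.6 and 52.3 in KO1 to KO4. KO1, KO2 and KO3 were above every WT library, and KO4 was below all but WT2. The log2 difference was 0.22 (standard error 0.15, 95% interval -0.13 to 0.56, limma adjusted p = 0.946), and it was 0.12 after median-ratio scaling.

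The 12 α chains that can pair with β1 summed to 123 to 131 FPKM in WT and 113 to 146 in KO, with a ratio of Itgb1 to the α sum of 0.387 to 0.501 in WT and 0.394 to 0.596 in KO. These shares are taken within a library and do not depend on scaling between libraries. Itgav was the largest part in all libraries but KO1, at 24.95% to 34.9% in WT and 17.9% to 28.6% in KO, and Itga6 was at 15.4% to 22.8% and 16.1% to 20.9%. Itga4, a chain also found on blood cells, had the widest range relative to its level, at 16.6% in WT1, 5.33%, 1.885% and 5.80% in WT2 to WT4, and 6.23% to 14.1% in KO.

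**Figure D3:**
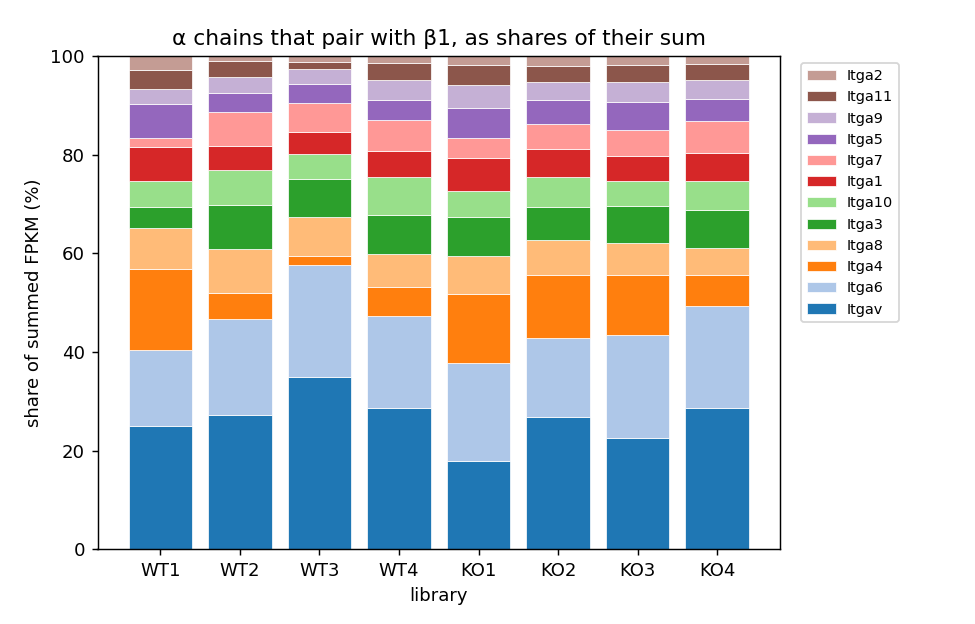
Share of each α chain (%) in the summed FPKM of the 12 α chains that pair with β1, 1 bar per library. Itgav and Itga6 form the base of every bar, and the Itga4 segment above them is 16.6% in WT1, 1.885% in WT3 and 6.23% to 14.1% in KO.

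Collagen-binding integrins were expressed at low to moderate levels, and 0 of the 4 were called, while Itga2 was called higher without WT1. Itga10, a chondrocyte-rich receptor for collagen, averaged 7.89 ± 1.54 FPKM among WT and 7.37 ± 1.36 among KO libraries (SD, n = 4), and Itga1, a receptor for type IV collagen on fibroblasts and vessels, 6.79 ± 1.30 and 7.44 ± 0.629. Their intervals for the log2 difference were -0.54 to 0.35 and -0.24 to 0.53. Itga11, the fibroblast receptor for fibrillar collagen, was 4.73, 4.20, 1.76 and 4.25 FPKM in WT1 to WT4 and 4.46, 4.85, 4.32 and 4.29 in KO1 to KO4. WT3 was the lowest and the other libraries lay close together, and the log2 difference was 0.35 (95% interval -0.34 to 1.03) and 0.0283 without WT3. Itga2, which binds collagen on epithelia and platelets, was 3.64 in WT1, 1.32 to 1.66 in WT2 to WT4 and 2.10 to 2.82 in KO. WT1 lay above all KO libraries and the remaining WT libraries lay below them, so the log2 difference was 0.32 with all libraries and 0.63 (95% interval 0.18 to 1.09) without WT1, and 0.201 without WT3.

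Laminin-binding integrins did not differ detectably, and 0 of the 4 were called with or without WT1. Itga6 and Itgb4 form the hemidesmosomal receptor of epithelia and Schwann cells. Itga6 was 19.4, 25.5, 28.5 and 22.8 FPKM in WT1 to WT4 and 22.4, 23.4, 26.6 and 27.5 in KO1 to KO4, a log2 difference of 0.06 with a 95% interval of -0.28 to 0.41. Itgb4 was 5.53 in WT1, 9.29 to 11.2 in WT2 to WT4 and 9.19 to 12.1 in KO, and its difference of 0.17 was -0.05 without WT1. Itga3, which pairs with β1 at epithelial basement membranes, and Itga7, the laminin receptor of muscle and Schwann cells, were likewise lowest in WT1, at 5.40 and 2.40 FPKM. The remaining WT values were 9.51 to 11.7 for Itga3 and 7.26 to 8.97 for Itga7, which overlapped KO values of 8.82 to 10.1 and 4.55 to 8.65. The median log2 difference of the 4 genes was 0.14 with all libraries and -0.09 without WT1.

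The chains that bind Arg-Gly-Asp proteins were dominated by αv and its β partners, and 0 of the 8 were called. Without WT1, Itga5 and Itgb3 were called higher. Itgav (ENSMUSG00000027087) was 31.4, 35.6, 43.7 and 35.3 FPKM in WT1 to WT4 and 20.2, 39.0, 28.7 and 38.1 in KO1 to KO4. KO1 and KO3 lay below the lowest WT value and the other KO libraries lay inside the WT range, with a log2 difference of -0.25 (95% interval -0.76 to 0.26). Itgb5, the β5 partner that binds vitronectin, averaged 32.6 ± 10.7 FPKM in WT against 39.2 ± 6.65 in KO (SD, n = 4), and Itgb8, the partner used to activate latent TGF-β, was 24.8 ± 9.79 and 20.8 ± 2.44. The log2 differences of Itgb5 and Itgb8 were 0.32 and -0.17, with both intervals spanning 0. Itga8, a fibronectin and nephronectin receptor needed for stereocilia formation in vestibular hair cells, was 8.29 to 11.6 in WT and 7.41 to 10.5 in KO, with a difference of -0.205 (95% interval -0.58 to 0.17). Itgb6, an epithelial chain, was 0.202 to 1.36 FPKM in WT and 0.511 to 0.815 in KO.

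Within the same group, Itgb3 and Itga2b encode the platelet pair, and both were lowest in WT3. Itgb3, which also pairs with αv on osteoclasts, was 19.99, 12.1, 3.03 and 14.7 FPKM in WT1 to WT4 and 16.6, 17.3, 26.3 and 17.2 in KO1 to KO4. WT3 was lowest by far, and WT1 alone overlapped KO, so that the log2 difference was 0.89 (95% interval -0.30 to 2.07) and 1.21 (0.08 to 2.33) without WT1. Without WT3 it was 0.313. Itga2b was 13.2, 14.5, 3.13 and 14.8 in WT and 9.87, 10.1, 17.7 and 13.8 in KO. Its groups overlapped throughout, and without WT3 its difference of 0.36 became -0.18. The ratio of Itga2b to Itgb3 within a library was 0.585 to 0.802 in KO, 0.659 in WT1 and 1.01 to 1.20 in WT2 to WT4. Megakaryocyte and platelet markers (6 genes, 0 called, none at 0) summed to 240.1, 59.5, 6.72 and 75.55 FPKM in WT1 to WT4 and 89.0 to 182 in KO. Osteoclast markers (1 of 4 tested called higher, Ctsk, and none at 0) summed to 165, 36.9, 14.5 and 52.6 in WT and 93.3 to 205 in KO. Without WT1, 2 megakaryocyte and platelet markers and 4 osteoclast markers were called higher, against 12.1% of all tested genes. The part of these cells in the Itgb3 and Itga2b values was not tested. In whole cochleae more cells of a type and more RNA per cell cannot be told apart.

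Itga5, the main fibronectin receptor, had tight groups apart from WT1. It was 8.54 FPKM in WT1, 5.20, 4.82 and 5.20 in WT2 to WT4, and 6.805, 7.002, 7.06 and 5.95 in KO1 to KO4. All KO values lay above WT2 to WT4 and below WT1. The log2 difference was 0.21 (95% interval -0.25 to 0.67), and without WT1 it was 0.39 (0.10 to 0.68). Without WT3 it was 0.123.

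Itga9 (ENSMUSG00000039115, chromosome 9, 118606690 to 118901003) was the only receptor whose KO values all exceeded its WT values. The α9 chain binds tenascin C, osteopontin and other ligands with β1. Its FPKM was 3.88, 4.19, 3.88 and 4.92 in WT1 to WT4 and 5.33, 5.26, 5.25 and 5.17 in KO1 to KO4, so the means were 4.22 ± 0.491 and 5.25 ± 0.0617 (SD, n = 4). The KO libraries were nearly equal, and WT4 came closest to them. The log2 difference was 0.32 (standard error 0.15, 95% interval -0.02 to 0.65, limma adjusted p = 0.946), just short of a call, and the exact two-sided permutation test gave p = 0.0286, the smallest that 4 against 4 libraries allow. That p-value takes no account of the 35 genes looked at. Groups did not overlap for 3.5% of all tested genes, with KO above WT for 3.02% and below for 0.487%, and among the receptors this was 1 of 35 (2.86%). The difference of Itga9 was 0.22 after median-ratio scaling and 0.17 after quantile normalization.

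Itga4 and Itgb7 form integrins that bind VCAM-1, fibronectin and MAdCAM-1 on circulating and tissue leukocytes. Itga4 was 20.9, 6.97, 2.36 and 7.14 FPKM in WT1 to WT4 and 15.9, 18.5, 15.5 and 8.28 in KO1 to KO4. KO lay above WT2 to WT4 and below WT1. The log2 difference was 0.97 (95% interval -0.34 to 2.29), and without WT1 it was 1.49 (0.52 to 2.46). Without WT3 it was 0.457. For Itgb7, FPKM was 4.74, 3.94, 1.67 and 4.60 in WT and 6.67, 7.22, 7.52 and 3.74 in KO. KO4 lay among the WT values, and the difference was 0.79 (95% interval -0.05 to 1.63) and 0.452 without WT3.

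Itgb2, Itgam and Itgal had the largest SD on the log2 scale within WT of all the receptors, and 0 of the 4 leukocyte chains tested were called with all 8 libraries. Itgb2, the common β2 chain, was 54.1, 7.15, 2.50 and 8.87 FPKM in WT1 to WT4 and 29.65, 20.3, 31.9 and 13.7 in KO1 to KO4. The WT libraries thus spanned 21.7-fold and the KO libraries 2.33-fold. Itgam, the αM chain of neutrophils and macrophages, was 26.8, 8.26, 2.77 and 2.90 in WT and 11.3, 9.45, 12.1 and 16.1 in KO. Itgal, the αL chain of most white cells, was 10.96, 3.21, 0.978 and 3.61 in WT and 6.42, 5.52, 8.41 and 4.48 in KO. In all 3 genes KO lay above WT2 to WT4 and below WT1. The log2 differences of Itgb2, Itgam and Itgal were 1.22, 0.87 and 0.82 with all libraries, each with an interval spanning 0, and 2.04 (95% interval 1.003 to 3.08), 1.54 (0.68 to 2.40) and 1.38 (0.39 to 2.36) without WT1. Without WT3 they were 0.582, 0.465 and 0.258. Itgax, the αX chain of dendritic cells, was 0.649 to 1.65 in WT and 1.0104 to 1.49 in KO.

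The general leukocyte and neutrophil sums, like Itgb2, Itgam and Itgal, were highest in WT1 and lowest in WT3. The T and NK cell sum was also highest in WT1 (21.9 FPKM) and lowest in WT3 (1.36). The macrophage and B lineage sums were lowest in WT3 too (53.7 and 1.28 FPKM) but were not highest in WT1. The macrophage sum was highest in KO3 (113, against 99.2 in WT1) and the B lineage sum in KO2 (73.99, against 41.8 in WT1). Within KO, Itgam and Itgax were highest in KO4, where the general leukocyte and neutrophil sums were lowest. The part of white cells in the values was not tested. The general leukocyte genes Ptprc, Coro1a, Laptm5 and Lcp1 summed to 357, 74.6, 33.6 and 93.9 FPKM in WT1 to WT4 and 184, 193, 248 and 132 in KO1 to KO4, and 1 of the 4 was called higher (Coro1a). Of the other lists, 0 of 8 neutrophil genes, 0 of 6 macrophage genes, 3 of 6 B lineage genes (Igll1, Vpreb1 and Vpreb3, all higher) and 0 of 2 tested T and NK cell genes were called, and none of these markers was at 0. Without WT1, 4 of 4 general leukocyte, 8 of 8 neutrophil, 1 of 6 macrophage and 5 of 6 B lineage genes were called higher, and 1 T or NK cell gene. Over all tested genes, 4.61% were called higher with all libraries and 12.1% without WT1. Among the general leukocyte genes, Coro1a was highest in KO3 (78.1 FPKM, against 42 in WT1). Macrophage genes summed to 53.7 to 99.2 in WT and 58.4 to 113 in KO, and B lineage genes to 1.28 to 41.8 and 25.6 to 73.99. Divided by the summed general leukocyte genes of the same library, Itgb2 was 0.151, 0.0958, 0.0743 and 0.09445 in WT and 0.161, 0.105, 0.129 and 0.104 in KO. On that ratio the groups overlapped (exact two-sided permutation test, p = 0.314). The same ratio for Itgal was 0.0291 to 0.0430 in WT and 0.0286 to 0.0349 in KO (exact permutation test, p = 0.571), and for Itga4 it was 0.0584 to 0.09345 and 0.0627 to 0.0958 (exact permutation test, p = 0.857). The 7 such ratios computed (the others for Itgam, Itgax, Itgb7 and Cd44) had Benjamini-Hochberg adjusted values of 0.8 to 0.914 in exact permutation tests. The ratios were chosen after the levels had been seen, and a p that misses the threshold does not show that the ratios are equal.

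**Figure D4:**
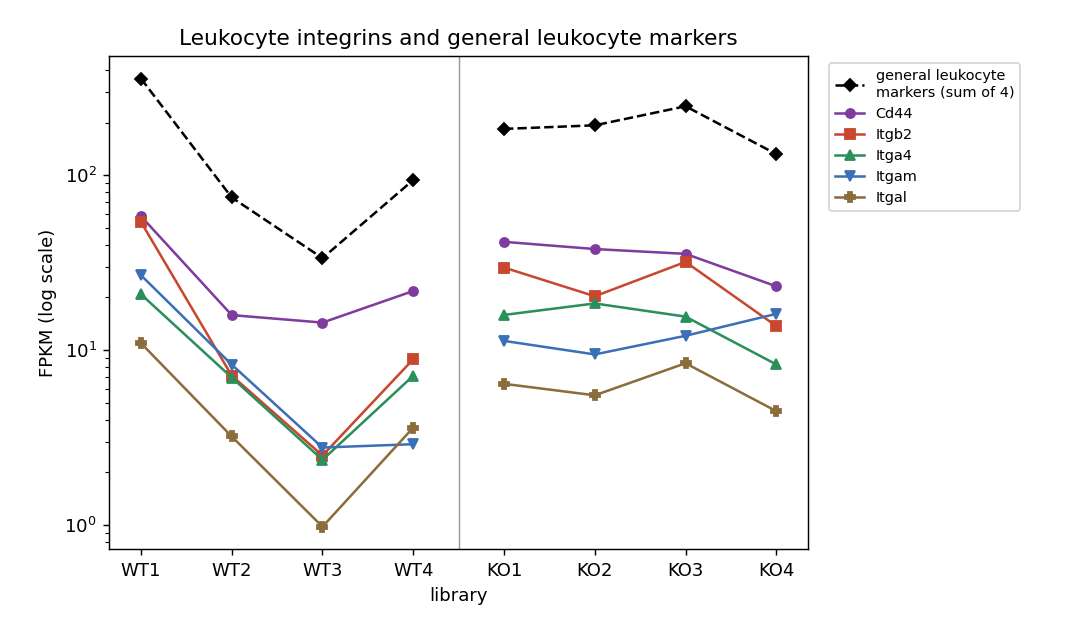
FPKM (log scale) of Itgb2, Itgam, Itgal, Itga4 and Cd44 in each library, with the sum of the general leukocyte markers Ptprc, Coro1a, Laptm5 and Lcp1 as the dashed line (lines join libraries of a group for reading only). Every curve is highest in WT1, and the marker sum is 357 FPKM there, 33.6 in WT3 and 132 to 248 in KO.

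Cd36 (ENSMUSG00000002944, chromosome 5, 17781690 to 17888801), the receptor for thrombospondin, collagen and fatty acids on adipocytes, capillaries, platelets and macrophages, was the 1 receptor called higher in KO. Its FPKM was 5.77, 3.14, 1.27 and 5.23 in WT1 to WT4 and 8.09, 12.002, 11.9 and 4.67 in KO1 to KO4. KO1 to KO3 lay above every WT library, and KO4 lay below WT1 and WT4. The means were 3.85 ± 2.06 and 9.18 ± 3.52 (SD, n = 4), the log2 difference was 1.34 (standard error 0.50, 95% interval 0.21 to 2.47, limma adjusted p = 0.946), and the exact two-sided permutation test gave p = 0.0857. The call was lost without WT2, KO2 or KO3. Adipocyte genes (0 of 5 tested called) summed to 9.04, 11.9, 0.101 and 28.3 FPKM in WT1 to WT4 and 23.98, 48.9, 45.1 and 5.70 in KO1 to KO4, so that KO4 was low and WT3 lowest for these genes as for Cd36. Adipoq, which encodes adiponectin, and Cidec were at 0 in WT3, Ucp1 was at 0 in WT1, and Lep was at 0 in WT1 and KO4. Endothelial genes summed to 37.2 to 56.8 in WT and 41.5 to 51.0 in KO, with 0 of 5 called. The part of these cells in the Cd36 values was not tested.

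Cd47 (ENSMUSG00000055447), the thrombospondin receptor that also signals to macrophages through SIRPα, had the closest values among the WT libraries. It was 54.5, 52.4, 50.4 and 56.9 FPKM in WT1 to WT4 and 63.2, 80.6, 69.2 and 56.6 in KO1 to KO4. KO4 alone overlapped WT, lying just under WT4. The log2 difference was 0.32 (standard error 0.14, 95% interval -0.0048 to 0.65, limma adjusted p = 0.946), with p = 0.0571 in the exact two-sided permutation test. Median-ratio scaling lowered it to 0.22. Cd44, the hyaluronan receptor of fibroblasts and leukocytes, was 58.3, 15.9, 14.4 and 21.8 in WT and 41.6, 37.8, 35.5 and 23.2 in KO. KO lay between WT1 and the rest of WT. Divided by the summed general leukocyte genes, Cd44 was 0.163, 0.213, 0.428 and 0.232 in WT1 to WT4 and 0.143 to 0.226 in KO. The log2 difference of Cd44 was 0.54 with all libraries and 0.98 (95% interval 0.46 to 1.499) without WT1, and 0.309 without WT3.

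**Figure D5:**
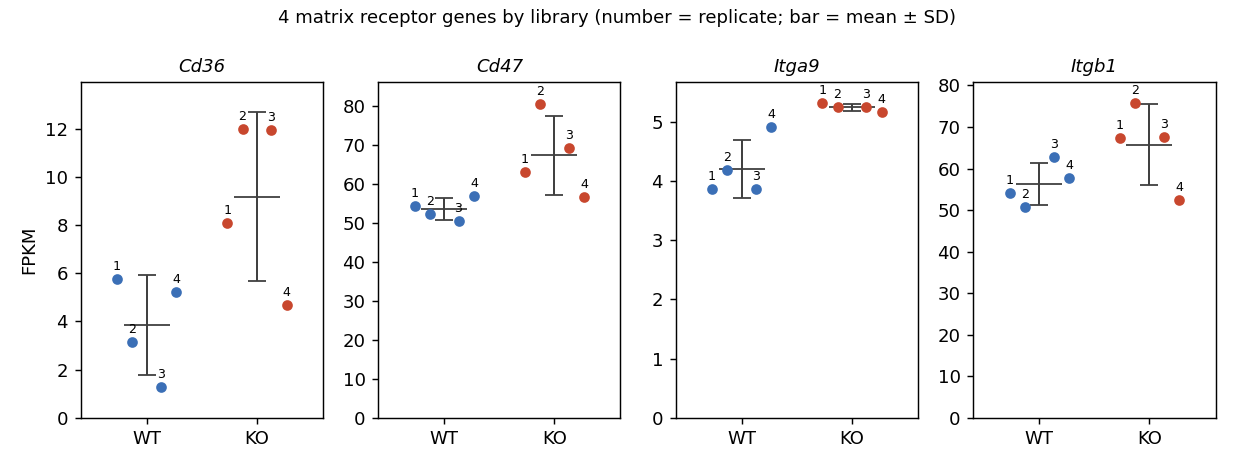
FPKM of Cd36, Cd47, Itga9 and Itgb1 in each WT (blue) and KO (red) library, with the replicate number at each point and the group mean ± SD as bars. KO4 lies inside the WT range for Cd36, Cd47 and Itgb1, and all KO points of Itga9 lie between 5.17 and 5.33, above the highest WT point at 4.92.

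The discoidin domain receptors were unequal in level and in spread. Ddr2, the receptor of fibroblasts and osteoblasts for fibrillar collagen, was 26.6 to 43.9 FPKM in WT and 31.1 to 37.3 in KO, with a log2 difference of 0.02 (95% interval -0.36 to 0.41). Ddr1, its epithelial and Schwann cell counterpart, was 4.70, 20.1, 18.5 and 21.1 in WT1 to WT4 and 11.1, 14.0, 15.8 and 15.6 in KO1 to KO4. KO thus lay below WT2 to WT4 and above WT1. The difference was 0.01 (95% interval -1.02 to 1.04), and without WT1 it was -0.50 (-0.84 to -0.17), the only lower call in the family. The ratio of Ddr2 to Ddr1 was 5.67, 1.49, 2.37 and 1.56 in WT and 1.97 to 2.94 in KO.

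None of the other laminin receptors and syndecans was called. Dag1, which encodes both dystroglycan subunits, was 28.6, 45.5, 60.6 and 43.6 FPKM in WT1 to WT4 and 40.3 to 46.8 in KO, a log2 difference of 0.01 (95% interval -0.49 to 0.50). Among 12 tested genes that build or glycosylate the dystroglycan complex, 0 were called (5.12% of all tested genes). Without WT1, 2 of the complex's genes were called lower (7.4% of all tested genes). Bcam, a receptor for the laminin α5 chain, was 14.3 in WT1, 41.1 to 53.3 in WT2 to WT4 and 33.2 to 58.6 in KO. Sdc4, the syndecan of focal adhesions, was 22.6 in WT1, 76.8, 116 and 90.2 in WT2 to WT4, and 75.6, 97.2, 94.98 and 95.4 in KO1 to KO4. Its difference of 0.47 (95% interval -0.57 to 1.504) rested on WT1 and was -0.04 without it. Sdc3, the neural syndecan, was 29.5 in WT1, 40.9 to 42.5 in WT2 to WT4 and 40.05 to 48.7 in KO. Sdc2, a syndecan of mesenchymal cells, was 14.2 to 17.5 in WT and 13.3 to 15.7 in KO, with a difference of -0.06 (95% interval -0.34 to 0.23). Sdc1, found on epithelia and plasma cells, was 2.37 to 3.51 in WT and 2.82 to 5.33 in KO, with a difference of 0.43 (95% interval -0.09 to 0.96).

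The 9 receptor genes with the seed-matching letters in their 3′-UTR had log2 differences of 0.01 (Dag1) to 0.97 (Itga4), so that 9 of 9 were above 0, with a median of 0.32. Dag1 and Ddr2 were below 0 after median-ratio scaling (-0.0899 and -0.0755) and without WT1 (-0.188 and -0.0766). The other 26 receptor genes had a median of 0.25, with 20 above 0. Over all tested genes the medians were 0.11 for the 2294 with the letters and 0.10 for the 12538 without, with 68.7% and 66.1% above 0. Of the 9, 0 were called with all libraries, against 7.02% of all tested genes with the letters. Without WT1 5 were called higher (Cd44, Cd47, Itga4, Itga5 and Itgb3), against 12.1% of all tested genes with the letters. Of the 26 receptor genes without the letters, 7 were called higher in that fit (26.9%), against 12% of all tested genes without them. The list of 9 includes Itga4, Itgb3 and Cd44, and the part of blood and bone cells in their values was not tested.

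Genes on either side of the receptors were counted from lists, to be read against 4.61% higher and 0.507% lower over all tested genes, or 12.1% and 7.4% without WT1. Of 37 tested adaptor genes that link integrin tails to actin and kinases, 2 were called higher in KO and 0 lower, and 13 higher and 1 lower without WT1. These were Csk, the kinase that restrains Src, at 18.8 to 23.5 FPKM in WT and 24.4 to 29.6 in KO (log2 difference 0.36, limma adjusted p = 0.946), and Kank1, which binds talin at the rim of adhesions, at 9.23 to 16.2 in WT and 17.8 to 21.3 in KO (0.47). Neither gene's groups overlapped. Tgfb1i1, which encodes the paxillin relative Hic-5, had the next smallest p-value among them, with 6.86 to 9.63 in WT, 4.51 to 9.07 in KO and a difference of -0.50 (95% interval -1.04 to 0.05). Of 39 tested ligand genes (collagens, laminins, fibronectin, tenascins, thrombospondins and similar), 10 were called higher and 0 lower (19 and 1 without WT1), namely Col1a1, Col1a2, Col3a1, Col4a1, Col4a2, Col5a1, Col6a1, Emilin1, Fbn1 and Lamc1. The ligands summed to 1771 to 2276 FPKM in WT and 2627 to 3137 in KO, without overlap. The ligand list was drawn up with earlier results of these data known, and the study reports raised ECM genes from this RNA-seq. The ligand count and sum are therefore a description and not an independent test. Col3a1, Col5a1 and Fbn1 had the smallest p-values, with log2 differences of 1.09, 0.97 and 0.73 and adjusted p-values of 0.558, 0.922 and 0.922. The collagen-binding chains Itga1, Itga2, Itga10 and Itga11, by comparison, summed to 15.3 to 23.6 FPKM in WT and 19.6 to 24.9 in KO, with overlap.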

How the data were processed

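RNA was taken from whole cochleae with TRIzol and depleted of ribosomal RNA before strand-specific libraries were made. The labels name RNase R, an enzyme that degrades linear RNA, at the fragmentation step and mention a circRNA library. Whether linear RNA was depleted is unclear, so FPKM may not measure mRNA alone or in full. The authors mapped paired-end reads with Hisat2 (v2.0.4) and deposited FPKM for each gene and library. The program and annotation behind the FPKM are not given in the sources used here. The labels name the build mm9, whereas the coordinates in the table are those of GRCm38 for all 36 receptor genes and for 19771 of the 21760 identifiers (of 21895) listed by GENCODE mouse release 21. Without counts, no counting error could be given, and DESeq2, the authors' test on counts, was not run. Relative depth is the modal ratio of values under 0.1 FPKM, as a multiple of the median library. Unused columns of per-sample values numbered 0.

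log2(FPKM + 0.1) was fitted with limma 3.58.1 (R 4.3.3) for the 14990 genes averaging at least 0.5 FPKM, using genotype alone and empirical Bayes moderation that follows mean expression. Single values were compared by exact permutation tests. Groups and replicate numbers came from sample titles. The receptor genes and all gene lists were chosen with earlier results of these data known. Receptor genes to describe were those called, those without overlap, and per role group the 2 with the highest mean and the 2 with the smallest p-value, plus the 3 smallest p-values of the adaptor and ligand lists. Itga2b, Itga5, Itga7, Itgax, Itgb6, Itgb8 and Sdc2 fall outside this rule and complete their groups. Alternatives covered the pseudocount, the filter, scaling, the variance trend, a replicate block, numbers 1 to 3 only and leaving out each library.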

Additional observations from a re-analysis of the deposited data

Results flagged for a closer look

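In 11 of the 72 groups of 4 libraries (36 genes in WT and in KO), the highest or lowest library stood further from the rest than Dixon's 95% critical value for 4 values. For normally distributed and independent values, chance alone sets about 1 group in 20 apart. The FPKM were not log-transformed for this and the genes share libraries, so that rate is only a rough guide. WT1 was the library apart in 6 of them. WT1 was high for Itgb2 (54.1 FPKM), Cd44 (58.3), Itga5 (8.54) and Itga2 (3.64), and low for Sdc3 (29.5) and Ddr1 (4.70). WT3 was low for Itga2b (3.13 FPKM) and high for Itgae (0.396), a gene too low to be tested. Among KO libraries, KO1 was low for Sdc4 (75.6 FPKM), KO2 was high for Itgb4 (12.1) and KO3 was high for Itgb3 (26.3). The sums of general leukocyte, neutrophil and platelet markers were highest in WT1 and lowest in WT3, and their part in these values was not tested.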

How the results depend on the processing

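Of the 35 receptor genes, the count called higher in KO (1) became 2 without a filter on low values, 2 without a variance trend, 3 with replicate numbers 1 to 3 only, and 9 with WT1 and WT3 both left out, where 1 was lower. The adaptor count (2 higher, 0 lower) became 1 and 1 under median-ratio scaling or quantile normalization, 1 higher without a variance trend, 0 higher with numbers 1 to 3 only, and 8 higher and 1 lower without WT1 and WT3, where 2430 of all genes were called against 767. Leaving out each library in turn gave 0 to 12 receptors higher and 0 to 1 lower, 0 to 13 adaptors higher and 0 to 1 lower, 9 to 19 ligands higher and 0 to 1 lower, and 347 to 2922 calls over all genes. The upper end came without WT1 in each case. The lower end came without WT2, KO2 or KO3 for receptors, KO2 or KO3 for adaptors and KO3 for all genes (377 without KO2).

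Same-numbered libraries had correlations of deviations from their group means of 0.419, -0.24, -0.17 and 0.21, so the labels' numbers were not taken as pairs. With a replicate block, 1 receptor was called higher, Sdc1 and not Cd36, and the other counts stayed within 1.5 times.

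Signs turned only for genes that were not called with all libraries. Under median-ratio scaling the log2 difference was -0.0899 for Dag1, -0.0755 for Ddr2, -0.0352 for Itga6 and -0.0866 for Ddr1. Under quantile normalization it was -0.0964 for Dag1, -0.069 for Ddr2, -0.0275 for Itga6, -0.107 for Ddr1 and -0.013 for Itga3. With numbers 1 to 3 only it was -0.022 for Dag1, -0.0276 for Ddr2 and -0.00464 for Itga6, and with a pseudocount of 1 it was -0.00908 for Ddr1. Without WT1 and WT3 it was -0.0407 for Dag1, -0.0348 for Bcam, -0.555 for Ddr1, -0.23 for Itga2b, -0.18 for Itga3 and -0.312 for Itga7. Leaving out single libraries gave -0.0426 to 0.743 for Sdc4, -0.188 to 0.173 for Dag1, -0.107 to 0.524 for Bcam, -0.0766 to 0.163 for Ddr2, -0.036 to 0.149 for Itga6, -0.408 to 0.0588 for Itgb8 and -0.504 to 0.211 for Ddr1. It gave -0.0915 to 0.00805 for Sdc2, -0.179 to 0.556 for Itga2b, -0.0496 to 0.284 for Itgb4, -0.121 to 0.247 for Itga3, -0.246 to 0.373 for Itga7 and -0.51 to 0.247 for Itgb6. Of the values of 41 genes under 17 alternatives, 606 kept sign and call, 31 gained a call, 18 lost one and 41 changed sign. The cause of these changes was not tested. FPKM give no counts, so the depth behind Itgae, Itgb6 and Itgax, the lowest genes, is unknown.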
